A study of Mus musculus musculus x M. m. domesticus and Mus musculus musculus x Mus musculus castaneus and Mus musculus domesticus with 42 samples.

Results

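Liver transcript levels of male F1 hybrids between the house mouse subspecies Mus musculus musculus and Mus musculus domesticus were set against those of both parental subspecies. The comparison used 8 of the 42 arrays of the series, chosen by the tissue and genotype in their labels: 4 arrays of F1 livers and 4 of parental livers. The series covers brain, liver and testis of 14 males from 7 genotypes, bred from wild-derived inbred lines, with 2 males per genotype and 1 Affymetrix Mouse 430 2.0 array per male and tissue. It asks whether transcripts that differ between the parental subspecies are expressed additively in the F1, and which transcripts of the F1 lie beyond both of them. The musculus males were 47 days old and the domesticus males 45 days. The F1 with a musculus mother and a domesticus father (the musculus-mother F1) were sampled at 53 days, and the reciprocal F1 with a domesticus mother and a musculus father (the domesticus-mother F1) at 50 days. Every F1 male was older than every parental male, so age and hybrid genotype cannot be told apart. The replicates are labelled as separate males, and p-values measure the spread between these males. Each subspecies is represented by an inbred line, so the values describe these lines.

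A transcript is additive when the hybrid lies midway between its parents. If each allele is read out independently of the other, as happens with differences in the gene's own regulatory sequence, the F1 signal equals the arithmetic mean of the parental signals, here called the linear midparent. On the log2 scale used for testing, the midpoint is the geometric mean, which is always lower (the log2 midparent), and the gap between them widens with the parental difference. A dominant transcript resembles the higher or the lower parent, as can happen when a factor made by either allele acts on both copies. Liver is rich in enzymes of detoxification, bile acid handling and plasma protein secretion, families with many recently duplicated genes. The array reads each gene through short probes, so a sequence difference between subspecies within a probe can also change a signal.

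Each array gave 1 signal per probe set, a group of probes against the same transcript. Over the 8 arrays the median signal was 116 to 140. The correlation between the 2 males of a genotype was 0.953 to 0.97 (Pearson's r), over the 27022 probe sets kept for testing and in log2(signal + 31). The 10 hepatocyte markers, among them Alb, Ttr and Apob, summed to 209685 to 289971 signal units on every array. The Y-linked Eif2s3y read 1569 to 2798 on the 8 arrays, none of them low. Some arrays held more signal of other tissues. The summed signal of 16 exocrine pancreas genes was 11818 and 18120 in the musculus-mother F1 but 4470 and 6791 in the domesticus-mother F1, against 3149 to 4992 in the parents. The sum of 8 skeletal muscle genes was 14707 in domesticus male 2 and at most 5968 elsewhere. The sum of 13 lymphocyte genes was 5648 in musculus male 2 and at most 2732 elsewhere, with 3767 of it from Ighm, an immunoglobulin heavy chain. Without Ighm it was 1881 in that male and 1314 to 1711 elsewhere. In whole tissue, fewer cells of a type and less RNA per cell cannot be told apart.

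Of 27022 probe sets tested, 1668 (6.17%) differed between domesticus and musculus by limma at an adjusted p under 0.05, 854 (3.16%) higher in domesticus and 814 (3.01%) higher in musculus. The F1 mean of most of them lay nearer to the higher parent on the log2 scale. On the linear scale the positions spread widely around a median close to midway. With 0% as the lower and 100% as the higher parent, the median F1 position was 60.2% on the log2 scale (quartiles 45.6% and 73.3%) and 48.0% on the linear scale (quartiles 34.6% and 61.7%). The F1 mean exceeded the log2 midparent in 67.03% of these probe sets, against 48.11% of all tested, and the linear midparent in 43.8%, against 44.1% of all tested. The 854 probe sets higher in domesticus had median positions of 65.2% on the log2 and 52.1% on the linear scale. The 814 higher in musculus had median positions of 54.6% and 43.3%. On the linear scale, 52.1% of the first set and 35.1% of the second lay above the midparent. The first share turned below 50% without domesticus male 1 (40.7%), without domesticus male 2 (42.8%) and without the filter on dim probe sets (49.0%). The second stayed between 26.3% and 46.9% in the alternatives. The log2 position rose with the size of the parental difference, from a median of 55.4% where the parents differed by under 1 log2 unit to 75.8% where they differed by over 3, while the linear position stayed between 47.5% and 49.3%. The parental arrays that selected the 1668 probe sets also set both ends of this range, and the linear midparent is not independent of that selection, so these positions are given as a description.

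**Figure D1:**
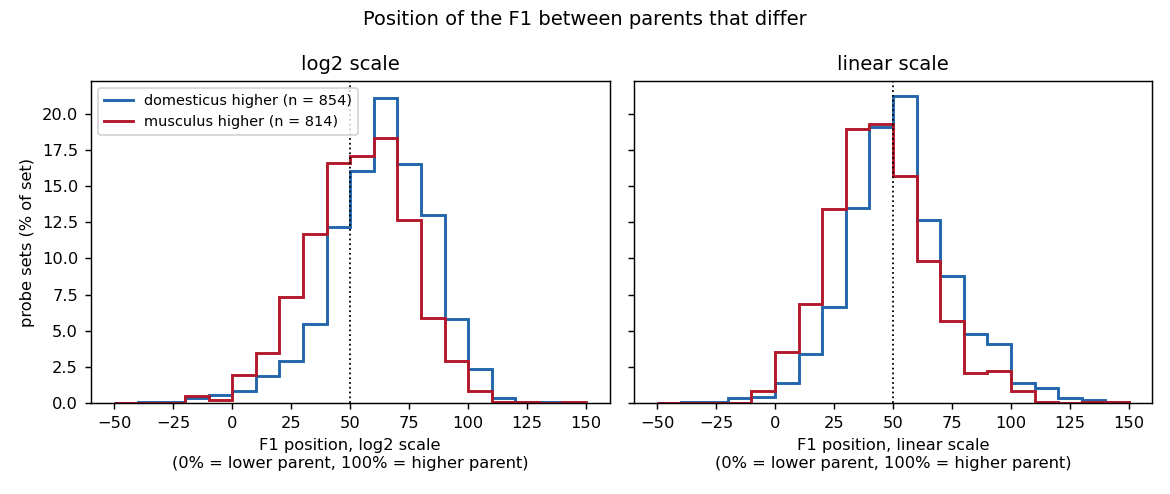
Histograms of the F1 position between the parents for the 854 probe sets higher in domesticus (blue) and the 814 higher in musculus (red). The x axis runs from the lower parent (0%) to the higher parent (100%) on the log2 scale (left) and the linear scale (right), the y axis gives the percent of each set, and the dotted line marks the midpoint. The median shifts from 60.2% on the log2 to 48.0% on the linear scale for both sets together.

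Tested singly, 48 probe sets (0.178%) differed from the log2 midparent, 47 (0.174%) above it and 1 (0.0037%) below it. Against the linear midparent 1 probe set (0.0037%) differed. At an unadjusted p under 0.05 the counts were 1485 (5.5%) for the log2, 791 above (2.93%) and 694 below (2.57%), and 1293 (4.78%) for the linear midparent. Of the 48, 47 also differed between the parents, 25 higher in domesticus and 22 higher in musculus; the exception was Hspb1. All 4 F1 arrays lay on the same side of the log2 midparent in each of the 48, and the reciprocal F1 differed in 0 of them, against 24 of all 27022 probe sets (0.0888%). The linear deviation was above 0 in 35 and below 0 in 13, and its 95% interval held 0 in 28, lay above 0 in 17 and below 0 in 3. By the calls of the F1 against each parent, 18 of the 47 probe sets with a parental difference differed from musculus but not from domesticus, 16 differed from domesticus but not from musculus, 12 differed from both and lay between them, and 1 differed from both and lay outside. Hspb1, too, differed from each parent singly and lay above both (limma adjusted p = 0.0434 and 0.038). The parent without a call was the one with the higher signal in all 18 of the domesticus-like and in 15 of the 16 musculus-like probe sets. Where the parents differ widely, the linear midparent lies close to the higher parent on the log2 scale. An F1 midway in signal can therefore fall in these classes, as did Enho at 53.7% and an Rpn1 probe set at 45.9% of the linear range. A missing call against a parent does not show equality with it. When p-values were adjusted only over the 1668 probe sets with a parental difference, which is the set the series' design names, 137 of them (8.21%) were off the log2 midparent, 122 above (7.31%) and 15 below (0.899%). By the same adjustment 28 (1.68%) were off the linear midparent, 6 above (0.36%) and 22 below (1.32%). The parental arrays that selected the 1668 probe sets also set the linear midparent. These linear calls are therefore not independent of that selection and are given as a description.

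**Figure D2:**
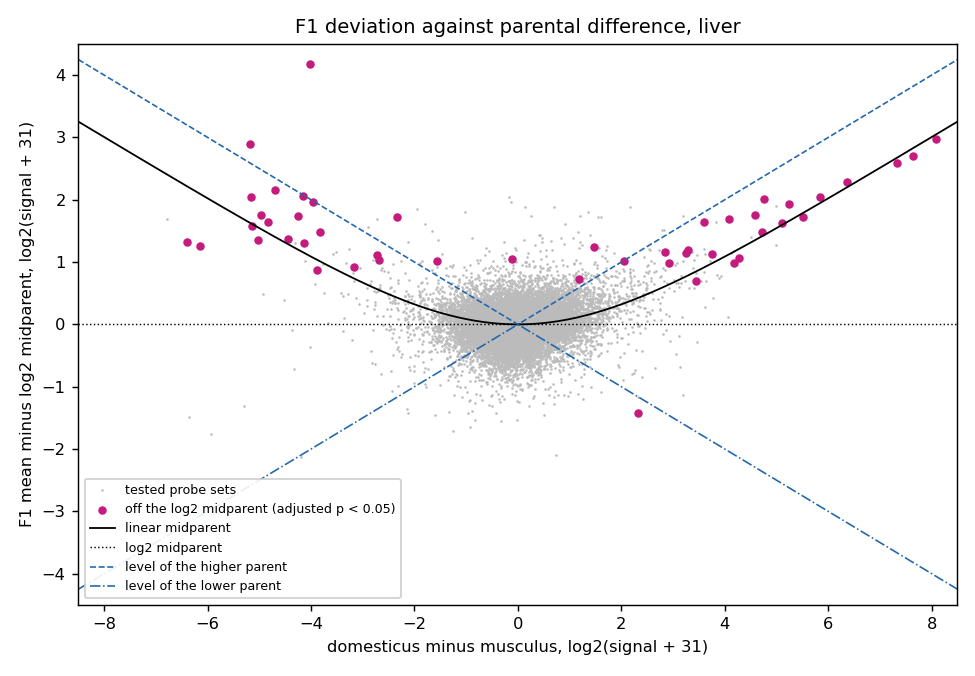
Each point is 1 of 27022 probe sets. The x axis gives domesticus minus musculus and the y axis the F1 mean minus the log2 midparent, both in log2(signal + 31); the 48 probe sets off the log2 midparent are pink, the solid curve is the linear midparent, the dotted line the log2 midparent, and the broken lines are the levels of the parents. Of the 48, 47 lie above 0 and most follow the solid curve or lie between it and the higher parent.

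The musculus-like transcripts with the largest deviations were Tff3, Wdfy1, Slc10a2 and Asic5. Tff3, a trefoil peptide secreted with mucus, read 8035 and 13621 in musculus, 239 and 273 in domesticus, 14342 and 12002 in the musculus-mother F1, and 11735 and 13265 in the domesticus-mother F1. All F1 arrays were within or above the musculus range and far above domesticus. The F1 mean was 2.89 ± 0.32 log2 units (SE) above the log2 midparent (limma adjusted p = 0.0012) and 1.25 above the linear midparent. Tff3 is also a marker of bile duct cells, and the 9 other bile duct markers on the array, among them Krt7, Krt19, Epcam and Sox9, stayed at or under 474 (Tspan8) on every array.

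Wdfy1, an endosomal adaptor of Toll-like receptor signalling, read 516 and 858 in musculus, 11 and 5 in domesticus, 758 and 651 in the musculus-mother F1, and 618 and 613 in the domesticus-mother F1. The F1 signals lay inside the musculus range, at 2.06 ± 0.17 above the log2 midparent (limma adjusted p = 0.000133) and 0.90 above the linear midparent. The 3 other tested Wdfy1 probe sets differed between the parents by at most 0.72 log2 units and lay between -0.05 and 0.06 from the log2 midparent.

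Slc10a2, the sodium-dependent transporter that takes bile acids back up, and Asic5, a bile acid-sensitive ion channel, were both low in domesticus. Slc10a2 read 1177 and 922 in musculus, 45 and 10 in domesticus, 1308 and 798 in the musculus-mother F1, and 619 and 596 in the domesticus-mother F1. The domesticus-mother F1 lay below both musculus arrays but the F1 as a whole overlapped them, and the deviation was 1.74 ± 0.30 (limma adjusted p = 0.0368). That call was lost in 10 of 17 alternatives, among them 7 of the 8 that left out a single array. For Asic5 the musculus arrays read 432 and 798, the domesticus arrays 99 and 85, the musculus-mother F1 1320 and 810, and the domesticus-mother F1 767 and 752. The F1 lay in the upper part of the musculus range or above it, 1.73 ± 0.21 above the log2 midparent (limma adjusted p = 0.00289) and 1.31 above the linear midparent, or 157% of the way from the lower to the higher parent on the linear scale.

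The transcripts with the largest deviations that were high in domesticus were Enho, Gstm3, Nat8f2 and Fam210a. Enho, which encodes the secreted peptide adropin, read 12 and 11 in musculus, 1944 and 2951 in domesticus, 881 and 1485 in the musculus-mother F1, and 1396 and 1515 in the domesticus-mother F1. The F1 arrays lay below both domesticus arrays and about midway on the linear scale, with a deviation of 2.04 ± 0.22 from the log2 midparent (limma adjusted p = 0.000962) and of 0.10 from the linear midparent. Among the other Enho probe sets, one differed between the parents in the same direction by 4.81 log2 units and its F1 deviation of 1.46 missed the threshold (limma adjusted p = 0.13), while the parents differed by 0.30 in the remaining one.

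Gstm3, a glutathione S-transferase, had 54 and 14 in musculus, 1752 and 1213 in domesticus, 882 and 1491 in the musculus-mother F1, and 659 and 1107 in the domesticus-mother F1. The F1 overlapped domesticus and were far above musculus, at 1.75 ± 0.27 over the log2 midparent (limma adjusted p = 0.0205), a call lost in 5 of 17 alternatives. A second Gstm3 probe set was higher in domesticus by 1.55 and deviated by 0.08. Fam210a, a mitochondrial membrane protein, had 9 and 8 in musculus, 578 and 716 in domesticus, 458 and 481 in the musculus-mother F1, and 511 and 533 in the domesticus-mother F1. The F1 arrays fell just short of the domesticus range, 1.69 ± 0.23 above the log2 midparent (limma adjusted p = 0.00689). None of 4 other Fam210a probe sets deviated by more than 0.22, and 1 of them was higher in musculus by 1.09.

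Nat8f2, an N-acetyltransferase-like gene of liver, had 245 and 367 in musculus, 13609 and 16634 in domesticus, 5310 and 6989 in the musculus-mother F1, and 8695 and 9147 in the domesticus-mother F1. All F1 arrays stood between the parents with no overlap. The deviation was 1.73 ± 0.15 from the log2 midparent (limma adjusted p = 0.000201) but -0.06 from the linear midparent, with a 95% interval from -0.46 to 0.34. It was thus off the log2 midparent while its linear interval held 0.

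Saa3, a serum amyloid A protein of the acute phase response, was the single call below the log2 midparent. It had 920 and 893 in musculus, 4463 and 4844 in domesticus, 921 and 863 in the musculus-mother F1, and 545 and 704 in the domesticus-mother F1. The musculus-mother F1 matched musculus and the domesticus-mother F1 lay below it. The F1 mean was -1.43 ± 0.23 from the log2 midparent (limma adjusted p = 0.0261) and -1.86 from the linear midparent. The direction was the same in 17 of 17 alternatives, and the call was lost in 10, including each of the 8 that left out a single array.

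**Figure D3:**
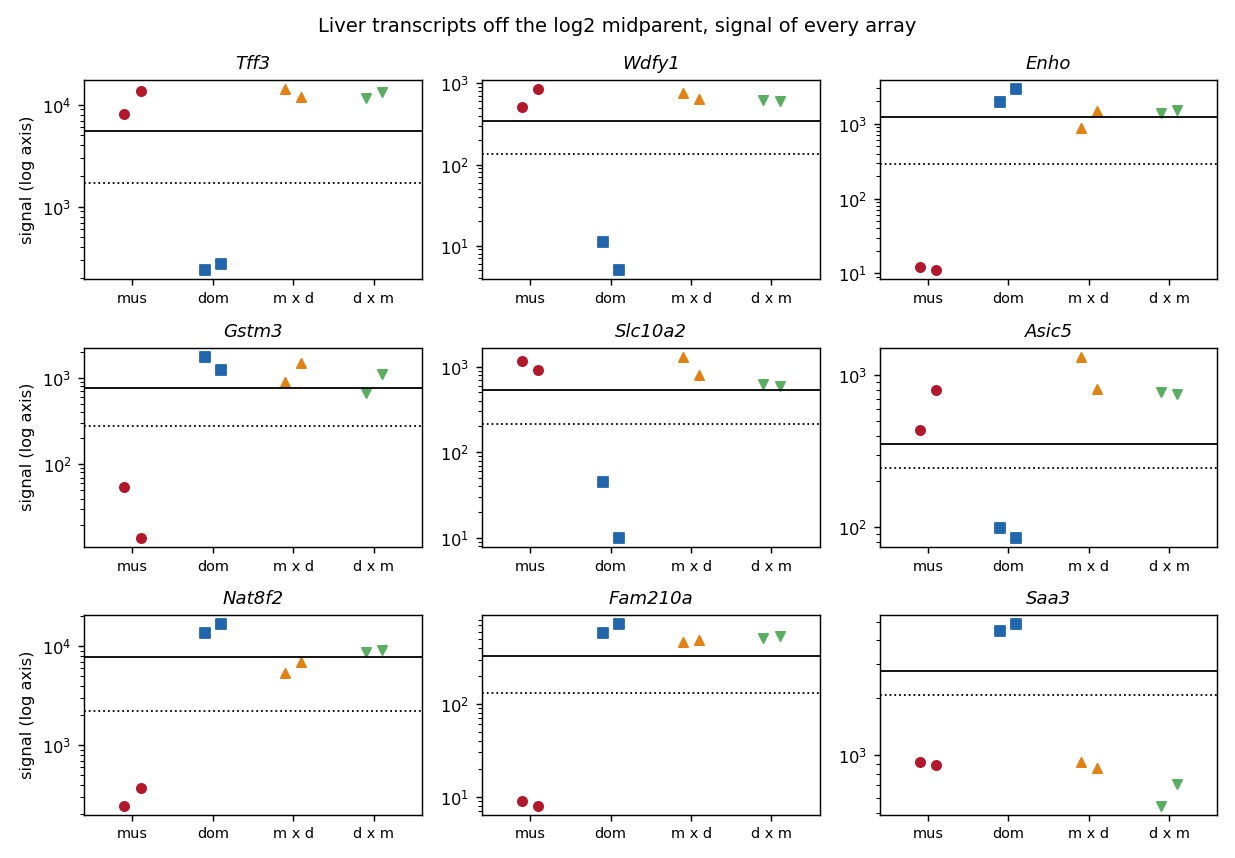
Signal of every array (log axis) for the 9 named transcripts off the log2 midparent, in musculus (mus), domesticus (dom), the musculus-mother F1 (m x d) and the domesticus-mother F1 (d x m), 2 males each. The solid line is the mean of the parental mean signals (linear midparent) and the dotted line the log2 midparent; the F1 of Tff3, Wdfy1, Asic5 and Fam210a lie above both lines, those of Enho and Nat8f2 around the solid line, and those of Saa3 below both.

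Several further transcripts above the log2 midparent are enzymes or transporters of liver metabolism. Akr1c18, a hydroxysteroid dehydrogenase, had 10462 and 9232 in musculus, 189 and 324 in domesticus and 4587 to 5603 in the F1, a log2 deviation of 1.58 and a linear deviation of -0.03. Its F1 arrays formed a narrow band between the parents. Glyctk, glycerate kinase, had 60 and 80 in musculus, 2546 and 2735 in domesticus and 1314 to 1593 in the F1, with deviations of 1.48 and 0.06. Miox, which opens the myo-inositol ring, had 3218 and 3333 in musculus, 211 and 175 in domesticus and 1372 to 1704 in the F1, with deviations of 0.88 and -0.16. These transcripts deviated from the log2 and not from the linear midparent. Adi1, of the methionine salvage pathway, behaved alike in its probe set with a call (1.30 and 0.16).

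Other enzymes and transporters lay nearer to the higher parent. Cyp39a1, an oxysterol hydroxylase of bile acid synthesis, had 598 and 330 in musculus, 1625 and 1040 in domesticus and 1658 to 2145 in the F1, a log2 deviation of 1.24 ± 0.22 (limma adjusted p = 0.0437). All F1 arrays were above all 4 parental arrays, and the linear deviation was 1.06. Slc3a1, a subunit of the cystine transporter, had 136 and 183 in musculus, 1790 and 1808 in domesticus, and 1124 to 1684 in the F1 (log2 deviation 1.20), all below domesticus at 72.2% of the linear range. Fmo5, a flavin monooxygenase, had 2803 and 2688 in musculus, 196 and 140 in domesticus and 1537 to 2838 in the F1 (1.49), although its other 2 probe sets differed between the parents by 0.17 and 0.09 in size. Gstp3, a glutathione S-transferase, deviated by 1.14 and stood at 68.2% of the linear range, with every F1 array below domesticus. Ntrk2, a neurotrophin receptor with female-biased expression in liver, deviated by 1.11 and 1.37 in 2 probe sets. The first stood at 80.3% of the linear range, and the second, at 54.5%, was about midway.

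Secreted proteins of multigene families also appear, with probe sets of the suffix _x_at, which can read near-identical copies, so their gene names are uncertain. The probe set named Hamp2, a hepcidin, had 34263 and 30323 in musculus, 603 and 2407 in domesticus and 23641 to 34013 in the F1, a log2 deviation of 2.15 (limma adjusted p = 0.0113). The probe set named Mup3, a major urinary protein, had 1190 and 2956 in musculus, 23070 and 23170 in domesticus and 17673 to 24170 in the F1, a deviation of 1.64 (limma adjusted p = 0.00418). In both, the F1 overlapped the higher parent.

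Of the 48, 16 carried that suffix, 8 were named for the class I histocompatibility genes H2-K1 or H2-D1, which present peptides to T cells and are highly polymorphic, and 3 were named Rpn1. The 3 Rpn1 probe sets, for a subunit of the oligosaccharyltransferase of the endoplasmic reticulum, had at most 52 on either musculus array, 7449 to 11673 in domesticus and 3201 to 5975 in the F1. Their log2 deviations were 2.59, 2.71 and 2.97 and their linear deviations -0.09, -0.13 and -0.08. The other 3 tested Rpn1 probe sets differed between the parents by at most 0.37. In the same way, the other tested probe sets of Srp14, a signal recognition particle subunit, of Psmd6, a proteasome subunit, and of Glyctk differed between the parents by at most 0.18, 0.26 and 0.12, against 5.25, 2.85 and 4.73 in the probe set off the midparent. Over all 35 genes named by the 48 probe sets, 23 had another tested probe set, and in 11 of these every other probe set differed by under 1 log2 unit between the parents. The part of probe sequence in these signals was not tested.

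The class I probe sets went both ways between the parents. An H2-D1 probe set had 189 and 156 in musculus, 15256 and 18404 in domesticus and 7953 to 10953 in the F1, and another had 6569 and 5215 in musculus, 90 and 193 in domesticus and 3319 to 4390 in the F1. Their log2 deviations were 2.28 and 2.04 and their linear deviations 0.08 and 0.42. Both lay near the linear midparent, whichever parent was high. A probe set assigned to both H2-K1 and H2-D1 lay at the musculus level instead, with 3710 and 6833 in musculus, 210 and 404 in domesticus and 4110 to 5663 in the F1. Its linear deviation was 0.90, with a 95% interval from 0.34 to 1.46. Farthest from the linear midparent was an H2-K1 probe set with the suffix _x_at, which read 996 and 1921 in musculus, 20 and 119 in domesticus, 5741 and 6192 in the musculus-mother F1, and 6136 and 7395 in the domesticus-mother F1. Every F1 array was far above every parental array, although the test outside both parents, adjusted over all probe sets, missed the threshold. It was the 1 call off the linear midparent, lost without musculus male 1 or without any of 3 F1 males (deviation 3.08, limma adjusted p = 0.0342), with 4.18 ± 0.31 over the log2 midparent. Of 3 other tested H2-K1 probe sets, the deviations from the linear midparent were 0.26, -0.11 and -0.14.

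Additive transcripts were defined as those whose 95% interval of the deviation lay in the middle 50% of the log2 range between the parents. Of the 1668 probe sets with a parental difference, 71 (4.26%) met this, 26 higher in domesticus and 45 higher in musculus. For 930 (55.8%) the interval lay inside the parental range, and 691 were off neither midparent with an interval that was not inside that range. The linear deviation was below 0 in all 71, with an interval below 0 in 22, which follows from a definition made on the log2 scale.

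Among additive transcripts higher in musculus, Dntt, a template-independent DNA polymerase known from developing lymphocytes, had 5505 and 9140 in musculus, 231 and 180 in domesticus and 1241 to 2545 in the F1. Its log2 deviation was 0.49 ± 0.26 for a parental difference of -4.92, although another Dntt probe set was called above the log2 midparent (1.25). Mme, the membrane peptidase neprilysin, had 1011 and 1798 in musculus, 48 and 59 in domesticus and 155 to 345 in the F1. Its F1 stood at 13.9% of the linear range, -1.47 from the linear midparent (limma adjusted p = 0.0269 over the probe sets with a parental difference). Xaf1, an interferon-induced promoter of apoptosis, had 1505 and 995, then 76 and 109, and 322 to 502 in the F1, but its other probe set was higher in domesticus by 1.32 and deviated by -0.41. In the first-named probe sets of these genes the F1 arrays were clear of both parents. Lsm14a, an RNA-binding protein, and Tmem229a followed with parental differences of -3.14 and -2.92 and deviations of 0.42 and 0.29; 2 other Lsm14a probe sets differed between the parents by 0.45 and 0.10 in size.

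Orm1, an acute phase glycoprotein, met the same definition only as an average. It had 535 and 842 in musculus, 3 and 3 in domesticus, 350 and 390 in the musculus-mother F1, and 8 and 39 in the domesticus-mother F1. The musculus-mother F1 lay near musculus and the domesticus-mother F1 near domesticus, a reciprocal difference of 2.94 (limma adjusted p = 0.0133). In all, 4 of the 71 additive probe sets carried a reciprocal call.

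Higher in domesticus and additive were Serpina3a, a serine protease inhibitor (11 and 34 in musculus, 837 and 845 in domesticus, 155 to 265 in the F1), and Ifi27l2a, an interferon-induced protein (33 and 15, then 475 and 446, and 91 to 201). Cyp2b9, a cytochrome P450 of the phenobarbital-inducible family, had 30 and 70, then 432 and 685, and 150 to 202. The F1 of each lay apart from both parents and nearer to the lower one in signal units. Igfbp3, which carries insulin-like growth factors in plasma, had 155 and 293, then 1517 and 1468, and 578 to 645, and a second Igfbp3 probe set deviated by 0.21. Tfpi2, an inhibitor of serine proteases, had 1293 and 1007, then 5334 and 5570, and 2484 to 3538, and Gm4951 had 727 and 356, then 4096 and 3277, and 1024 to 1701. The log2 deviations of these 6 genes ranged from -0.09 to 0.22, for parental differences of 2.23 to 4.06.

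Further transcripts lay near the lower parent when read on the linear scale. None of those near the lower parent passed the linear test over all probe sets, and they are named from the adjustment over the 1668 probe sets with a parental difference, a choice made after their values were seen. The same parental arrays selected the 1668 and set the linear midparent, so these adjusted p-values are not independent of that selection. By that adjustment Mme and Orm1, described above as additive on the log2 scale, were also below the linear midparent. Cyp3a44, a cytochrome P450 with female-biased expression in mouse liver, had 9385 and 3429 in musculus, 125 and 103 in domesticus, 234 and 208 in the musculus-mother F1, and 805 and 312 in the domesticus-mother F1. Its F1 stood at 4.38% of the linear range, -2.99 from the linear midparent (adjusted p = 0.017 over those 1668) and -1.31 from the log2 midparent. The 4 F1 arrays lay above both domesticus arrays and far below both musculus arrays, which differed from each other. Hao2, a hydroxyacid oxidase (3638 and 806 in musculus, 57 and 72 in domesticus, 56 to 77 in the F1), and Slco1a4, an organic anion transporter (980 and 407, then 134 and 62, and 23 to 196), stood at the domesticus level too but did not pass that adjustment.

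Ces1g, a carboxylesterase that limits lipid secretion, had 272 and 946 in musculus, 4883 and 5002 in domesticus and 356 to 1580 in the F1, at 5.01% of the linear range. Lcn2, a siderophore-binding lipocalin, had 686 and 330 in musculus, 85 and 84 in domesticus and 13 to 106 in the F1. Cxcl1, a neutrophil chemokine, had 648 and 616 in musculus, 1956 and 5537 in domesticus and 414 to 1040 in the F1, and its 2 other probe sets deviated from the log2 midparent by -0.63 and -0.90. Whichever parent was high, the F1 of Saa3, Lcn2 and Cxcl1 lay at or near the lower one. H2-Bl, a class I histocompatibility gene, had 738 and 642 in musculus, 2923 and 3990 in domesticus and 832 to 1009 in the F1. E2f5, a cell cycle repressor, had 592 and 429, then 75 and 113, and 37 to 134, but its other 2 probe sets deviated by 0.16 and 0.19. Above the linear midparent by the same adjustment were E2f7, a related repressor (615 and 573 in musculus, 206 and 156 in domesticus, 392 to 1096 in the F1), and Serinc3, a membrane protein (724 and 674, then 1648 and 1610, and 1506 to 1944), beside H2-K1, Asic5, Cyp39a1 and Wdfy1.

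No transcript was called outside both parents: 0 of 27022 passed the adjusted threshold in limma, and 134 (0.496%) did so at an unadjusted p under 0.05, 55 above both parents (0.204%) and 79 below (0.292%). All 4 F1 arrays were above all 4 parental arrays in 214 probe sets (0.792%) and below them in 323 (1.2%). Such separation of 4 arrays from 4 also arises by chance, and the share due to chance was not computed. The transcripts described next met both the unadjusted threshold and this lack of overlap, were chosen after their values were seen, and are candidates that did not pass the correction.

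Kcnk1, a potassium channel, had 149 and 110 in musculus, 135 and 95 in domesticus, 802 and 927 in the musculus-mother F1, and 265 and 484 in the domesticus-mother F1. It stood 1.89 ± 0.435 log2 units above the nearer parent. Hspb1, a small heat shock protein, had 599 and 551, then 519 and 531, 1253 and 658 in the musculus-mother F1, and 1436 and 1557 in the domesticus-mother F1, which put it 0.985 above the nearer parent. It was the 1 of the 48 log2 calls without a parental difference (1.05 ± 0.18, limma adjusted p = 0.0437), and its other probe set deviated by 1.33 with overlapping arrays. Cyp26a1, which clears retinoic acid, had 155 and 282, then 269 and 202, 835 and 286 in the musculus-mother F1, and 1124 and 2341 in the domesticus-mother F1, with 1 F1 array just above the highest parental value. Chd3, a chromatin remodeller, had 545 to 757 in the parents and 981 to 1157 in the F1, a tight gap with a deviation of 0.67. Tob1, an antiproliferative protein (144 to 266 in the parents, 357 to 539 in the F1), and Sik1, a salt-inducible kinase (43 to 83 and 91 to 381), had deviations of 0.95 and 1.19; the other Tob1 and Sik1 probe sets deviated by 0.40 and 0.52.

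Among the candidates below both parents, Col3a1, a fibrillar collagen chain, had 1380 to 1537 in the parents and 744 to 1031 in the F1, -0.682 ± 0.207 from the nearer parent, while its other probe set deviated by -0.21 and overlapped the parents. Col4a1, a basement membrane collagen chain, had 817 to 1243 in the parents, 440 and 547 in the musculus-mother F1 and 627 and 700 in the domesticus-mother F1, and its second probe set deviated in the same direction (-1.27 against -0.80). Smoc2, a matricellular protein, had 387 to 561 in the parents and 161 to 363 in the F1. In each of the 3 the lowest parental array was above the highest F1 array. Their part in the summed signal of 12 stellate cell and fibroblast markers, which was 11235 to 12146 in musculus, 16329 to 20201 in domesticus and 11350 to 15609 in the F1, was not tested. Of those 12 markers, 6 lay above and 6 below the log2 midparent (median 0.03), and 1, Col3a1, had an unadjusted p under 0.05 against both parents. Nr4a3, an immediate early nuclear receptor, had 177 to 236 in the parents and 53 to 125 in the F1, and Smpd3, a neutral sphingomyelinase, 155 to 277 and 19 to 90 in 1 probe set, with 0.0049 in the other. Prkar1a, a regulatory subunit of protein kinase A, had 197 to 258 and 46 to 170 in 1 probe set, while 2 others deviated by 0.02 and 0.08.

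**Figure D4:**
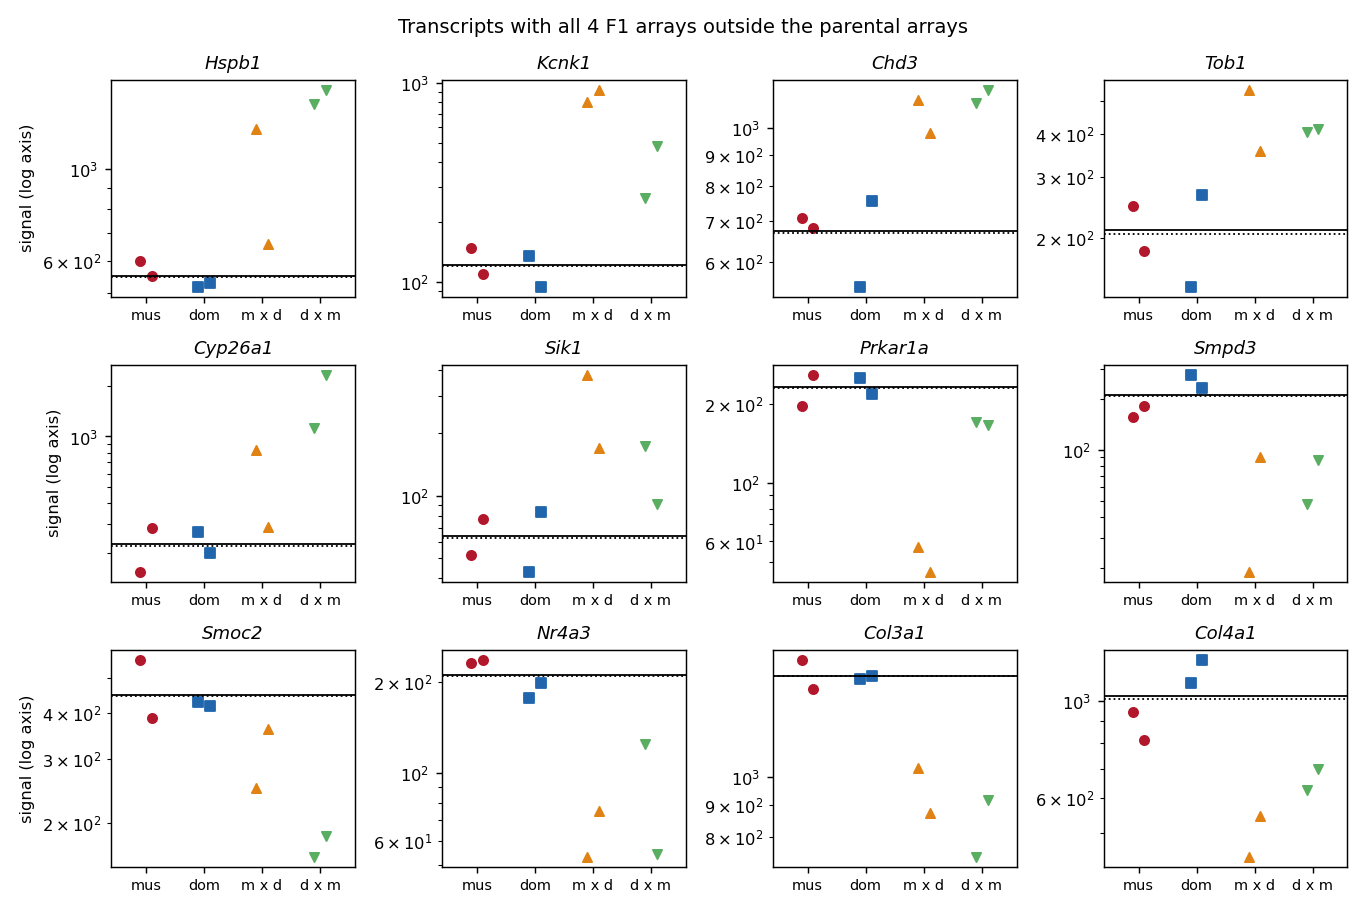
Signal of every array (log axis) for 6 candidates above and 6 below both parents, in musculus (mus), domesticus (dom), the musculus-mother F1 (m x d) and the domesticus-mother F1 (d x m), 2 males each; the solid line is the linear and the dotted line the log2 midparent. All 4 F1 points of each gene lie on one side of all 4 parental points, by the widest margins in Kcnk1 and Smpd3 and narrow ones in Cyp26a1, Smoc2, Sik1 and Hspb1.

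Genes of detoxification lay on both sides of the log2 midparent. Of 49 cytochrome P450 genes tested, 6 were higher in domesticus and 3 in musculus (430 and 442 of 13421 tested genes), 1 was above the log2 midparent (Cyp39a1) and 0 below; the median deviation was -0.04, against -0.01 over all 13421 genes, of which 16 were above and 1 below. Cyp17a1, an enzyme of steroid synthesis, had 321 and 222 in musculus, 4212 and 4235 in domesticus and 2945 to 4474 in the F1, a deviation of 1.64 that missed the threshold (limma adjusted p = 0.179). Cyp2b10 had 130 and 169, then 938 and 334, and 438 to 1057 (deviation 1.25, limma adjusted p = 0.387). The F1 of both lay at the level of domesticus. Of 14 female-biased liver genes, 2 were higher in domesticus and 7 in musculus, against 430 and 442 of 13421 tested genes, and the median log2 deviation was 0.14, while the median linear deviation was -0.51. The log2 median was -0.01 in the musculus-mother F1 and -0.09 in the domesticus-mother F1 taken alone. Ntrk2 was the 1 call above; Cyp17a1 lay near the high parent, and Cyp3a44, Hao2 and Sult3a1 near the low one.

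Among 42 phase II conjugation genes, 0 passed the threshold and 26 lay above the log2 midparent (median 0.06). Gstm6 had 503 and 648 in musculus, 3030 and 2330 in domesticus and 1938 to 2491 in the F1 (deviation 0.78, limma adjusted p = 0.0645), and Gstm2 had 248 and 413, then 3998 and 4510, and 1883 to 2947 (0.84, limma adjusted p = 0.179). Of 29 genes of bile acid synthesis and transport, Slc10a2 and Cyp39a1 were called above, against 16 of 13421 tested genes, and the median was -0.04. The Slc10a2 call was lost in 10 of 17 alternatives. Of 10 carboxylesterases, 3 were higher in domesticus, where 430 of 13421 tested genes were, and the median was -0.15. Ces2a had 296 and 902 in musculus, 7126 and 6552 in domesticus and 2953 to 3267 in the F1, close to the linear mean.

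Interferon-response genes lay low in the F1. Of 42 tested, 36 were below the log2 midparent (median -0.24), 0 passed the adjusted test, and 10 were below and 1 above at an unadjusted p under 0.05, where 2.57% of all probe sets were below and 2.93% above. In 5 of the 42, all 4 F1 arrays were below all 4 parental arrays, against 174 of 13421 tested genes. Gbp6, a guanylate-binding protein, had 359 to 505 in the parents and 223 to 325 in the F1 (-0.64 ± 0.16, limma adjusted p = 0.265). Isg20, an exonuclease, had 224 to 347 in the parents and 114 to 195 in the F1, and Irf7, the regulator of interferon genes, 494 to 688 and 304 to 511. The median stayed between -0.30 and -0.13 in the 17 alternatives. Ifi27 lay above the log2 midparent (0.58), with 357 and 305 in musculus, 3967 and 3619 in domesticus and 1595 to 1823 in the F1. Its parents differed widely, and all its F1 arrays lay below the mean of the parental signals.

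Of 13 Kupffer cell and macrophage markers, 12 were tested and 11 lay below the log2 midparent (median -0.27), with a summed signal of 10541 and 11082 in musculus, 16481 and 18848 in domesticus, and 8571 to 12948 in the F1. The part of these cells in the interferon values was not tested. Of 6 neutrophil markers 5 lay below (median -0.64). Of 47 acute phase, complement and coagulation genes, 45 lay below the log2 midparent (median -0.17), with Saa3 as the 1 call, against 1 of 13421 tested genes called below. After quantile normalization 36 of the 47 lay below, with a median of -0.06. Deviations of bright probe sets moved with this choice in general: in the brightest of 10 equal bins of probe sets the median was -0.04 as deposited and 0.0011 after quantile normalization. C1s1, a complement protease, had 6607 to 10816 in the parents and 5491 to 7041 in the F1. Of 17 antigen processing and histocompatibility genes, 15 lay below (median -0.11) and 0 were called.

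Glucocorticoid and metallothionein genes lay above the log2 midparent in 18 of 20 (median 0.40), with 0 calls. The list was high in the musculus-mother F1 (median 0.67) and not in the domesticus-mother F1 (-0.00011), and this difference between medians was not tested. Fkbp5, a glucocorticoid-induced chaperone, had 878 and 855 in musculus, 2592 and 990 in domesticus, 4232 and 4380 in the musculus-mother F1, and 964 and 855 in the domesticus-mother F1. Only the musculus-mother F1 was clear of the parents. Mt1, a metallothionein, had 2342 and 3239, then 23137 and 1742, 25218 and 13351 in the musculus-mother F1, and 1366 and 1524 in the domesticus-mother F1, so the domesticus males differed from each other as much as the F1 directions did. Dusp1, a phosphatase induced by stress, was high in all 4 F1 arrays (2714 to 4263, against 431 to 1967 in the parents; deviation 1.39, limma adjusted p = 0.213).

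Clock genes split in the same way. The median of 20 was 0.13 over both F1, 0.32 in the musculus-mother F1 and -0.29 in the domesticus-mother F1. Dbp, a clock output factor, had 4042 and 292 in musculus, 13786 and 2125 in domesticus, 12569 and 9776 in the musculus-mother F1, and 159 and 161 in the domesticus-mother F1. Arntl, whose transcript peaks opposite to Dbp, had 583 and 1229, then 80 and 705, 176 and 176, and 1348 and 1629. The males of each parental subspecies also differed from each other in both genes, most in Dbp of musculus. The exocrine pancreas markers followed the same F1 arrays: 14 of 15 lay above (median 0.80), with 1.62 in the musculus-mother F1 and -0.37 in the domesticus-mother F1. Cpa1, carboxypeptidase A1, had 290 and 674 in the musculus-mother F1 and at most 17 on the other 6 arrays.

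Of 33 heat shock and unfolded protein genes, 23 lay above (median 0.09) and Hspb1 was the 1 call, against 16 of 13421 tested genes called above. Without domesticus male 1 the median was -0.09. Hspa1b, an inducible chaperone, had 1435 and 1063 in musculus, 1630 and 6601 in domesticus and 2681 to 10511 in the F1, with overlap. Proliferation genes lay below in 15 of 22 (median -0.16), 0 were called, and in 4 all F1 arrays were below all parental arrays, against 174 of 13421 tested genes. Mcm5, a replication helicase subunit, had 185 to 354 in the parents and 82 to 179 in the F1 (-0.99, limma adjusted p = 0.255), and Ccnd1, cyclin D1, had 695 to 1757 and 498 to 647 (-0.99, limma adjusted p = 0.412).

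Several lists of intermediary metabolism had medians near the midparent, and lists of lipid synthesis and lipoproteins lay lower. Of 30 genes of fatty acid oxidation, 21 of glucose metabolism, 39 of the urea cycle and amino acid catabolism and 46 of the respiratory chain, 0 were called, and the medians were -0.05, -0.05, -0.06 and -0.07. Of 30 genes of fatty acid synthesis and storage, 21 lay below the log2 midparent (median -0.16). Of 23 genes of apolipoproteins and lipoprotein metabolism, 17 lay below (median -0.19). In both lists 0 were called. Cd36, a fatty acid transporter, had 354 to 1034 in the parents and 144 to 279 in the F1 (-1.21, limma adjusted p = 0.0561). Acot1, a thioesterase, had 154 to 742 in the parents and 425 to 1485 in the F1 (1.35, limma adjusted p = 0.403). Cholesterol synthesis and uptake had a median of -0.10 over 21 genes, made of -0.37 in the musculus-mother F1 and 0.19 in the domesticus-mother F1.

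**Figure D5:**
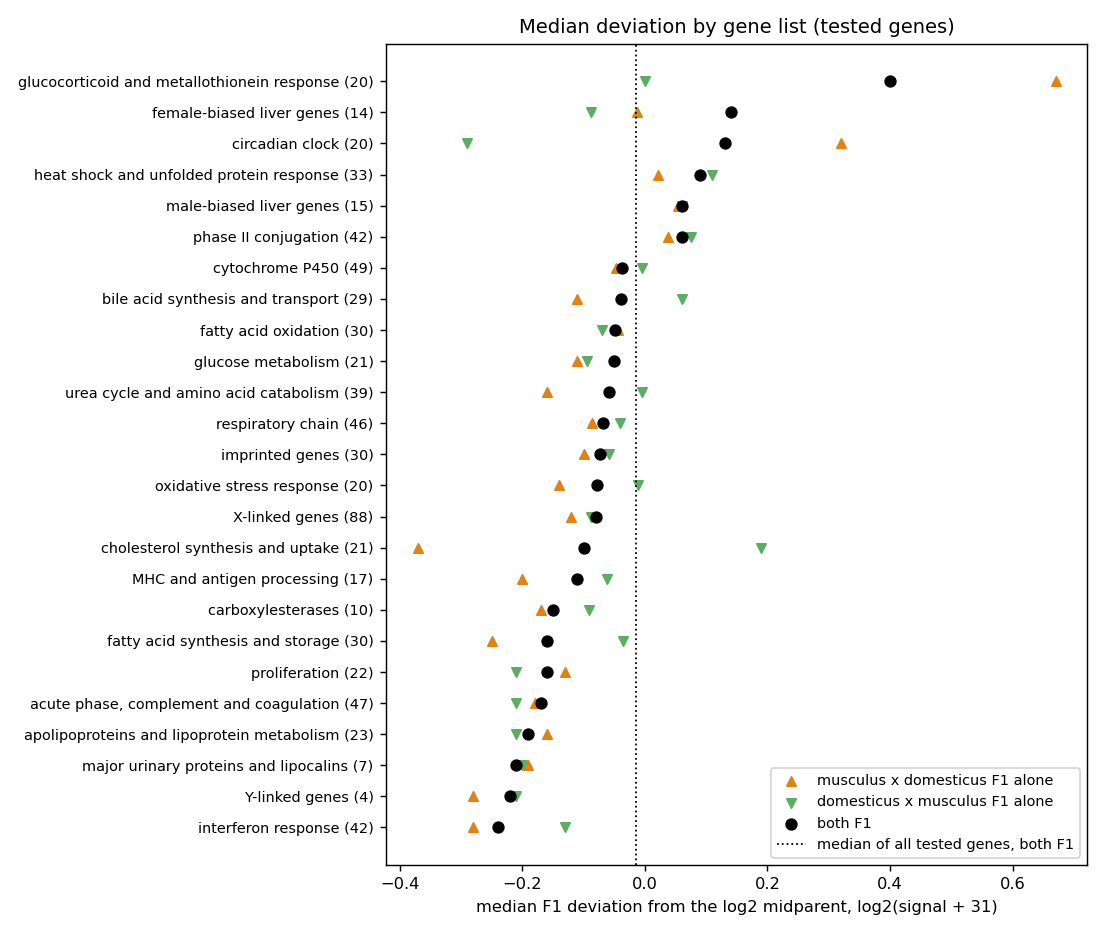
Median F1 deviation from the log2 midparent for 25 gene lists, in log2(signal + 31), over both F1 (circles), the musculus-mother F1 alone (upward triangles) and the domesticus-mother F1 alone (downward triangles). The number of tested genes stands in brackets and the dotted line is the median of all tested genes, -0.01; interferon-response genes lie lowest with both F1, and the glucocorticoid, clock and cholesterol lists separate the F1 directions.

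Some averages hid a difference between the reciprocal F1. Of 88 X-linked genes, 3 carried a reciprocal call, against 17 of 13421 tested genes, and males take their X chromosome from the mother. Trappc2, a trafficking protein, had 1136 and 1157 in musculus, 157 and 157 in domesticus, 890 and 879 in the musculus-mother F1, and 111 and 14 in the domesticus-mother F1. Hprt, a purine salvage enzyme, had 1734 and 1838, then 3316 and 3395, 1524 and 1521, and 3552 and 3494. Mpp1, a membrane scaffold protein, had 1159 and 771, then 2372 and 3023, 714 and 646, and 2179 and 2100. In these 3 genes each F1 lay near its mother's subspecies. Of 30 imprinted genes 1 had a reciprocal call, against the same 17 of 13421: Snhg14, a host transcript of small nucleolar RNAs expressed from the paternal allele, had 682 and 658 in musculus, 128 and 108 in domesticus, 66 and 84 in the musculus-mother F1, and 513 and 446 in the domesticus-mother F1, so each F1 lay near its father's subspecies.

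The deviation was then set against that of the musculus-castaneus F1 in liver, which share the musculus arrays, by testing the difference itself. It differed between the crosses in 23 probe sets (0.0851%), 14 of them among the 48. This overlap is partly built in, because both tests use the same F1 and domesticus arrays. Wdfy1 deviated by 2.06 here and 0.11 in the castaneus cross, Enho by 2.04 and 0.09, Akr1c18 by 1.58 and 0.01, and Slc3a1 by 1.20 and -0.36. For these the castaneus and musculus levels were close, differing by 0.28, -0.20, -0.65 and 0.36 log2 units, against -5.14 to 5.84 here. The reverse held for Sult3a1, a sulfotransferase (-0.94 here and 3.57 there), and Mrap, a melanocortin receptor accessory protein (-0.05 and 2.14), whose parents differed by 7.91 and -5.95 in the castaneus cross and by -2.00 and -1.22 here. Saa3 (-1.43 and -1.37), Lcn2 (-1.36 and -1.54), Kcnk1 (1.96 and 1.65) and Hspb1 (1.05 and 0.89) deviated the same way in both crosses. Smpd3 (-1.45 and -0.12), Tob1 (0.95 and -0.33) and H2-Bl (-0.73 and 0.15) deviated less there or the other way. None of these differences between crosses was called, and the musculus arrays enter both deviations. Tff3, with a castaneus-musculus difference of -4.49, deviated in both crosses (2.89 and 1.98), and its difference missed the threshold (limma adjusted p = 1), as did that of Nat8f2 (1.73 and 1.33).

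Against brain and testis of the same males, the liver deviation differed in 19 probe sets (0.0703%), 15 of them among the 48. Here, too, the overlap is partly built in, because both tests use the same liver values. In brain and testis the parents themselves differed little in these transcripts: by 0.44 and 0.05 for Wdfy1, 0.59 and 0.07 for Akr1c18, 0.20 and -0.22 for Asic5, and 0.00035 and 0.25 for Ntrk2, against -5.14 to -2.33 in liver. Wdfy1 deviated by 0.07 in brain and 0.0013 in testis, Akr1c18 by -0.27 and -0.94, Asic5 by 0.06 and -0.08, and Ntrk2 by 0.10 and 0.01. The 3 Rpn1 probe sets, whose parental differences were 6.68 to 7.37 in brain and 7.28 to 7.42 in testis, deviated by 2.57 to 2.89 in brain and 2.98 to 3.05 in testis, close to their liver values, and 0 of the 3 were called.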

How the data were processed

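RNA of liver was hybridised to 1-colour Affymetrix Mouse 430 2.0 arrays. The authors deposited linear signal intensity per probe set. The submitters' processing notes name MAS5, with a version not given in the sources used here. In total the table held 45037 probe sets, named through the platform annotation. Arrays came scaled to a common trimmed mean and were not normalized again. Their number limits the precision.

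Values were turned to log2(signal + 31), 31 being the 20th percentile of all values, so fold changes of dim probe sets are understated. Probe sets under the 40th percentile of mean liver level (82.4 signal units) were left out, leaving 27022. limma 3.58.1 in R 4.3.3 fitted 7 genotypes over 14 liver arrays (7 residual degrees of freedom, intensity trend). Tests were two-sided with Benjamini-Hochberg adjustment over all tested probe sets at 0.05. The linear midparent was the mean of parental levels turned back to signal, with its error from first-order weights. The tests were tried on simulated data. A gene in a list was read by 1 probe set.

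The members and lists were chosen with earlier results of these data known. Genes named by rule had 1 symbol and no _x_at suffix. The rules took the 8 largest log2 deviations each way, the 6 largest linear deviations each way and the farthest outside both parents without overlap. They also took the 6 additive genes with the largest parental difference each way. Members of gene lists were named as examples. Other transcripts, among them those with the suffix _x_at or several symbols, were described outside these rules. Since few or none qualified, the linear and outside rules were applied to calls adjusted over the parental calls and to unadjusted p. Alternatives were pseudocounts of 8 and 64, no filter, quantile normalization, the 8 arrays alone, each F1 direction alone, adjustment within the parental calls, the replicate number as a block, and each array left out.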

Additional observations from a re-analysis of the deposited data

Results flagged for a closer look

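The F1 deviation of 2 transcripts differed from that in the musculus-castaneus cross, which shares the musculus arrays, by a test of the difference itself. Wdfy1 deviated by 1.95 log2 units more here (limma adjusted p = 0.00183), and Enho by 1.96 more (limma adjusted p = 0.0105). In all 4 F1 arrays both lay above the log2 midparent. From the linear midparent they deviated here by 0.90 (Wdfy1) and 0.10 (Enho). The castaneus and musculus livers differed by 0.28 for Wdfy1 and -0.20 for Enho, against -4.16 and 5.84 between domesticus and musculus. An F1 at the linear midparent deviates more from the log2 midparent the more its parents differ. The test therefore does not separate the deviation from these parental differences.

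The liver deviation of 4 transcripts was larger than the mean of brain and testis of the same males. The difference was 2.03 for Wdfy1 (limma adjusted p = 0.00776), 1.96 for Enho (limma adjusted p = 0.0109), 1.74 for Asic5 (limma adjusted p = 0.0112) and 1.5 for Nat8f2 (limma adjusted p = 0.0266). From the linear midparent their liver deviations were 0.90, 0.10, 1.31 and -0.06, in that order. The parents differed in these transcripts by 2.33 to 5.84 log2 units in size in liver. In brain and testis they differed by 0.44 and 0.05 for Wdfy1, -0.28 and -1.86 for Enho, 0.20 and -0.22 for Asic5, and -0.21 and -0.47 for Nat8f2. As with the crosses, the test does not separate the deviation from these parental differences.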

How the results depend on the processing

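Adjusting over the probe sets with a parental difference gave 137 off the log2 midparent, 28 off the linear midparent and 87 like one parent. The 1 call off the linear midparent became 0 with a pseudocount of 8, 0 without the filter, 0 with only the musculus-mother F1 and 3 with only the domesticus-mother F1. Calls that depended on tissue fell to 11 with a pseudocount of 8.

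With 1 array left out, calls between the parents ranged from 769 (without musculus male 1; 1085 without musculus male 2) to 1516. Calls off the log2 midparent ranged from 30 to 54, with 30 without domesticus-mother F1 male 2, 30 without musculus-mother F1 male 1 and 31 without musculus male 1. The linear calls ranged from 0 to 3, those like one parent from 25 to 42, those outside both parents from 0 to 0, those that depended on the cross from 16 to 24 and those that depended on tissue from 3 to 27. The tissue count was 3 without domesticus-mother F1 male 2, 5 without musculus-mother F1 male 1, and 10 without domesticus-mother F1 male 1 or musculus male 1.

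Deviations of same-numbered arrays correlated at 0.0979 to 0.207 over 6 genotype pairs, 5 of them above 0.1. Since 1 was not and the labels name no shared litter or day, the numbers were not taken as pairing, which does not exclude it. The fit with the replicate number as a block gave 1624 parental, 45 log2, 1 linear, 34 like one parent, 0 outside, 21 cross and 19 tissue calls. No value of a named gene reversed.

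With 2 males per genotype and ages that differ between F1 and parents, small deviations could not be called, and dim probe sets have compressed differences.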
